A study of Mus musculus with 10 samples.

Results

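Cell cycle and proliferation genes were followed in isolates of liver sinusoidal endothelium. These endothelial cells (LSEC) form the porous wall of the liver's capillaries. The 56 genes were taken by symbol: 24 act in mitosis and cytokinesis, 13 in DNA replication, 8 are cyclins and kinases of the G1/S transition, 5 are transcription factors and 6 encode inhibitors of cyclin-dependent kinases. Of these, 55 were matched to a probe set among 24704 measured genes, and Ccnb1 was not matched. The mice were female C57BL/6N animals, aged 10 weeks at the start of the diets. In the CDAA group, a diet in which fat supplied 31% of calories and cholesterol made up 1% was given for 10 weeks, and in the Std group a control diet. CDAA usually denotes a choline-deficient, amino acid-defined diet that induces fatty liver with fibrosis. RNA was hybridised to 10 Affymetrix arrays, 5 per diet, each carrying cells of 3 pooled mice bound to magnetic beads against CD146. Pools are numbered CDAA 1 to CDAA 5 and Std 1 to Std 5, as in the labels. The labels also hold a duration field of 10 days, which the titles and the growth protocol contradict. The series' design text speaks of mice lacking Gata4 in LSEC. No sample is labelled so, and such mice are not analysed here.

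A cell that leaves quiescence first makes D cyclins, which activate the kinases CDK4 and CDK6 and inactivate the retinoblastoma protein. E2F factors then switch on cyclin E and the replication genes, and later the MuvB complex with MYBL2 and FOXM1 switches on the mitotic genes. CDK inhibitors of the CIP/KIP and INK4 families hold this sequence back, and in the healthy adult liver most cells, LSEC included, rest outside the cycle.

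Values are log2 signals, and a difference is CDAA minus Std. A gene "rose" or "fell" when its Benjamini-Hochberg adjusted p in a limma fit over all genes was under 0.05. Part of the mitotic and replication genes rose with CDAA, Cdk6 showed the sharpest rise of the members, and the D cyclins Ccnd2 and Ccnd3 fell. Of the 55 members, 14 rose (25.5%), against a background of 7.49% of all genes, and 3 fell (5.45%), against 9.13% of all genes. In either direction, 16.6% of all genes passed. The median difference was 0.26 over the members and -0.02 over all genes. A positive difference was seen in 42 of the 55 members and in 11450 of all 24704 genes. All 5 CDAA arrays lay above all 5 Std arrays for 6 members (10.9%, against 6.16% of all genes) and below them for 3 (5.45%, against 7.73%). In such bulk samples, more cycling cells and more RNA per cycling cell cannot be told apart, and neither can the cell types that cycle.

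**Figure D1:**
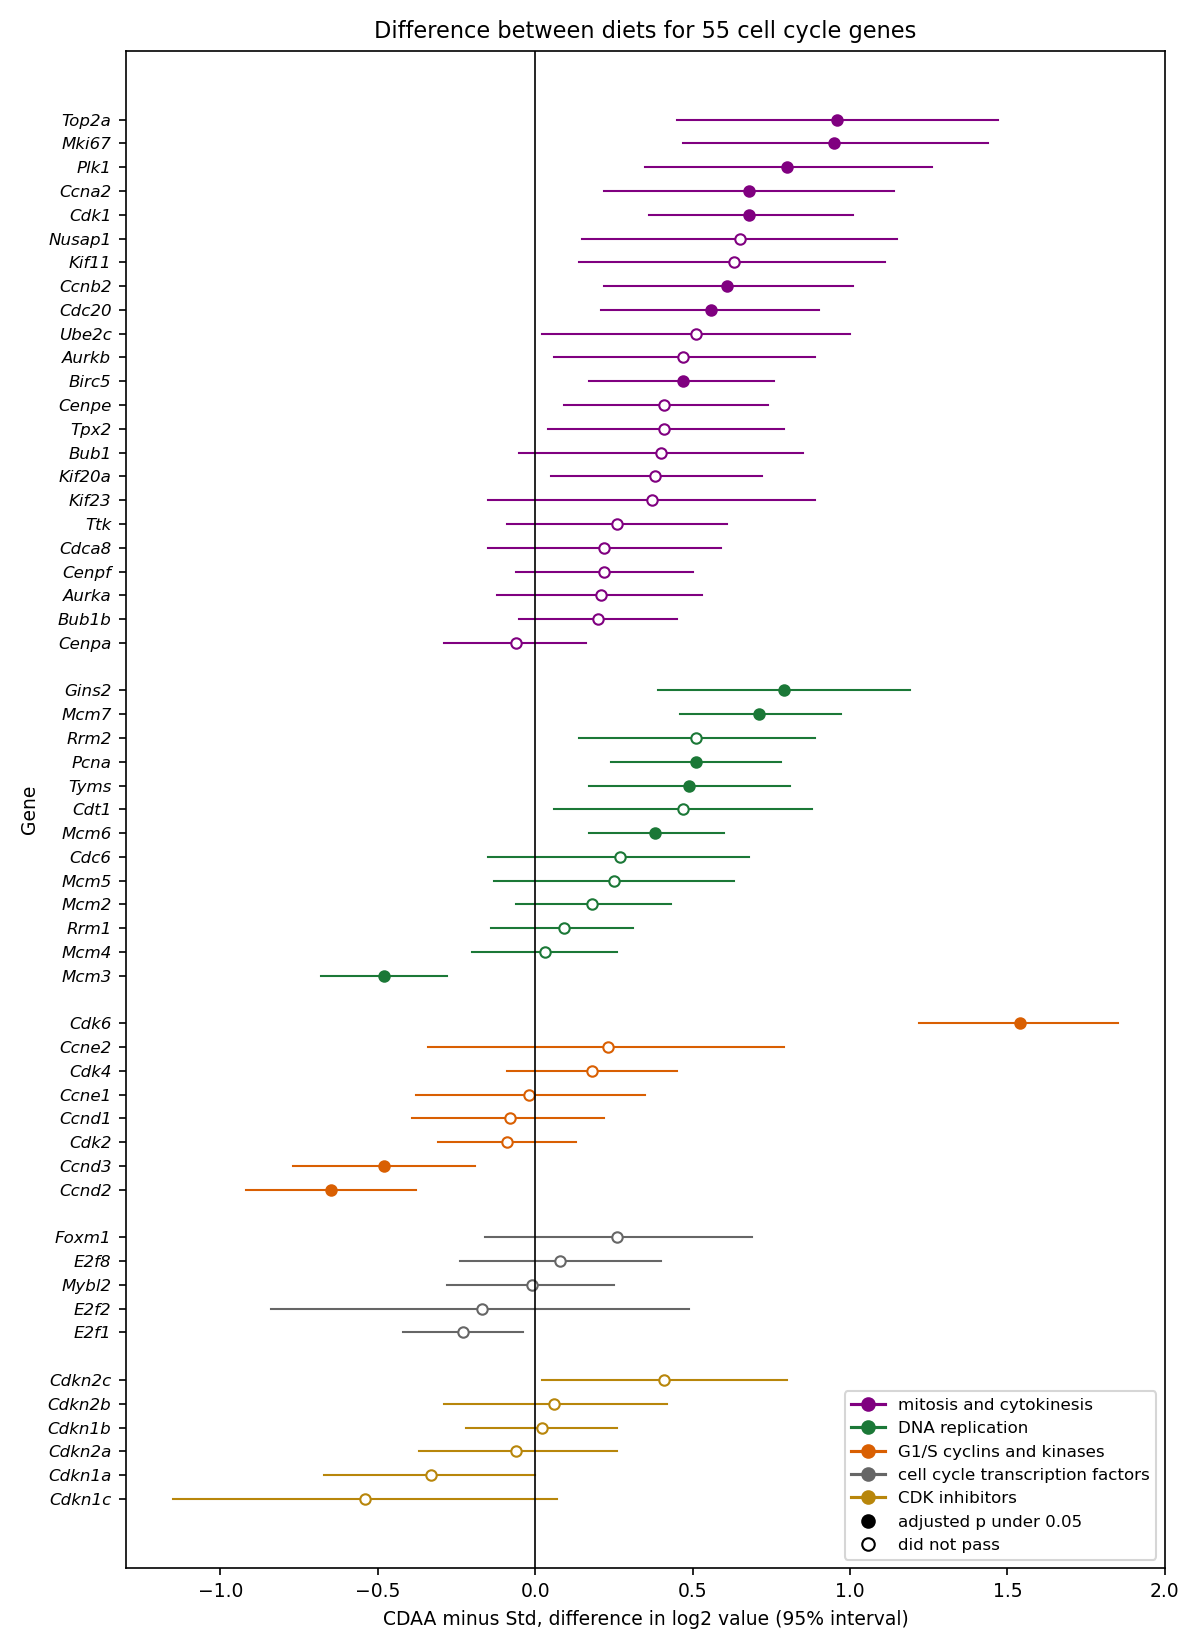
CDAA minus Std difference in log2 value (x axis) for each of the 55 measured members (y axis), grouped by role, with 95% limma intervals and 5 arrays per diet. Filled points passed an adjusted p of 0.05: Cdk6 stands farthest to the right at 1.54, and Ccnd2 farthest to the left among filled points at -0.65.

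The isolate carried proliferation markers with either diet. Mki67 (probe set 17345_at), which encodes the Ki-67 protein of cycling nuclei, read 8.22, 7.68, 8.32, 7.38 and 7.98 on CDAA 1 to 5 and 6.95, 6.97, 7.63, 6.45 and 6.81 on Std 1 to 5. CDAA 4 was the lowest CDAA array and Std 3 the highest Std array, so the diets overlapped by CDAA 4 alone. The means were 7.92 ± 0.39 and 6.96 ± 0.43 (SD, n = 5), and Mki67 rose by 0.95 ± 0.22 (SE, limma adjusted p = 0.0114), 1.94-fold. Top2a (21973_at), the topoisomerase that untangles sister chromatids, read 6.51, 6.45, 6.78, 5.97 and 7.04 with CDAA and 5.68, 5.49, 6.32, 5.07 and 5.39 with Std. Again only CDAA 4 lay below Std 3. Top2a rose by 0.96 ± 0.23 (limma adjusted p = 0.0148), also 1.94-fold. Members were judged above background by setting their mean against the 95th percentile of 1088 olfactory receptor genes, 3.33. Only Birc5 lay below it.

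Of 23 measured mitotic genes, 8 rose with CDAA (34.8%, against 7.49% of all genes) and none fell (against 9.13%). A positive difference was seen in 22, and the median was 0.47. By unadjusted p under 0.05 in limma, 15 were higher, against 12.2% of all genes, and 0 lower, against 16.2% of all genes. Plk1 (18817_at), the polo-like kinase of mitotic entry, read 6.65, 5.92, 6.12, 5.48 and 6.31 with CDAA and 5.13, 5.12, 5.83, 5.05 and 5.34 with Std. Its 4 higher CDAA arrays were above every Std array, and it rose by 0.80 ± 0.21 (limma adjusted p = 0.0206). Cdk1, the kinase that drives mitosis, was at 6.16 to 6.60 against 5.30 to 6.08. It alone of the mitotic members had every CDAA array above every Std array (4.35%, against 6.16% of all genes), and none had the reverse. Cdk1 rose by 0.68 ± 0.15 (limma adjusted p = 0.00841), 1.61-fold. Its partners Ccna2 and Ccnb2, the cyclins A2 and B2, rose by 0.68 and 0.61. Cdc20, the activator of the anaphase-promoting complex, rose by 0.56, and Birc5, the survivin subunit of the chromosomal passenger complex, by 0.47.

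The other 15 mitotic genes did not pass. The spindle motor Kif11 and the spindle assembly gene Nusap1 differed by 0.63 and 0.65, as much as genes that passed, but with larger spread (limma adjusted p = 0.0780 and 0.0772). Among kinases, Aurkb, of the chromosomal passenger complex, differed by 0.47 and Bub1 of the spindle checkpoint by 0.40. Ttk, which starts that checkpoint, differed by 0.26 and Aurka, of the spindle poles, by 0.21. Bub1b, also a gene of the checkpoint, differed by 0.20. The ubiquitin-conjugating enzyme Ube2c differed by 0.51, the spindle assembly factor Tpx2 by 0.41 and the passenger subunit Cdca8 by 0.22. The kinesins of cytokinesis Kif20a and Kif23 differed by 0.38 and 0.37. Of the kinetochore genes, Cenpe differed by 0.41 and Cenpf by 0.22. Cenpa, the histone variant that marks centromeres, was the exception, with a difference of -0.06 (95% interval -0.29 to 0.16) and values of 6.32 to 6.84 in CDAA and 6.57 to 6.73 in Std.

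**Figure D2:**
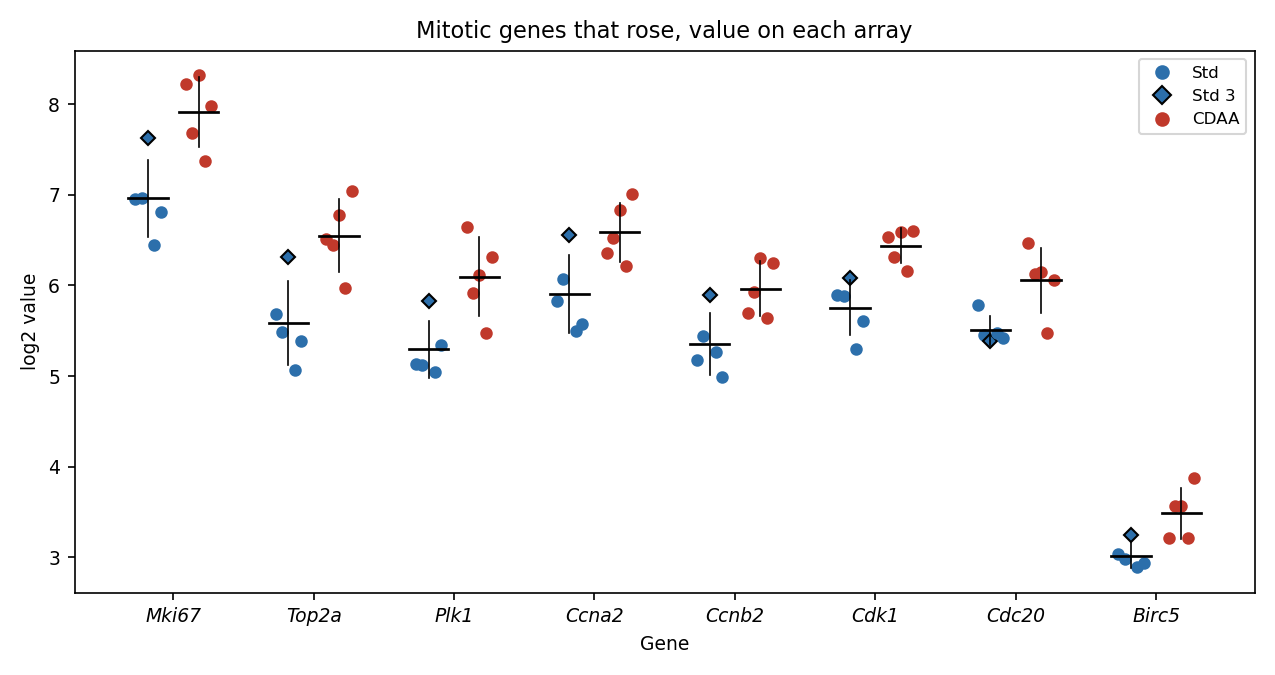
log2 values (y axis) of the 8 mitotic genes that rose, on each of 5 Std (blue) and 5 CDAA (red) arrays, with horizontal bars at the mean and vertical bars of 1 SD. Std 3 (diamond) was the highest Std array for 7 of the 8 genes, the exception being Cdc20.

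How many mitotic genes passed depended on single arrays, while the median difference stayed between 0.37 and 0.59 when any 1 array was left out. Std 3 was the highest Std array for 20 of the 23 mitotic genes and Std 4 the lowest for 17. Without Std 3, 14 mitotic genes rose (7.06% of all genes in that fit), with a median difference of 0.59, and Bub1, Ube2c, Cenpe, Kif11, Kif23, Nusap1 and Tpx2 passed, whereas Cdc20 did not (0.53). Without Std 4, 3 rose (5.68% of all genes). The count was 4 without CDAA 2, CDAA 3, Std 1, Std 2 or Std 5, where 6.95%, 6.44%, 5.81%, 6.81% and 6.12% of all genes rose in that order. It was 5 without CDAA 5 (6.95% of all genes), where Aurkb passed at 0.61, 6 without CDAA 1 (6.10%) and 8 without CDAA 4 (8.05%). Mki67, Top2a and Cdk1 passed with each of the 10 arrays left out in turn, with differences of 0.83 to 1.12, 0.83 to 1.14 and 0.57 to 0.76. Plk1 did not pass without Std 1 (0.76) or Std 4 (0.74). Ccna2 passed in 2 of the 10 fits (0.58 to 0.84 over all of them), Cdc20 in 2 (0.45 to 0.70), Ccnb2 in 3 (0.52 to 0.75) and Birc5 in 3 (0.37 to 0.53). CDAA 1 and CDAA 3 had the lowest means of the 10 LSEC markers, 10.74 and 10.39. Without both, Birc5 alone passed among the mitotic genes (0.53; 5.28% of all genes rose), although all 23 differences were positive, with a median of 0.43. Leaving out CDAA 1, CDAA 3 and Std 3 gave 10 mitotic genes (5.67% of all genes), among them Mki67 at 0.88, Top2a at 1.08 and Cdk1 at 0.68.

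Markers of other cells differed between these arrays. Std 3 was high for a list of neutrophil and bone marrow precursor markers. The mean of these 10 genes was 8.44 there, 3.62 to 3.85 on the other Std arrays and 4.49 to 5.53 on the CDAA arrays. The granule genes Ltf and Ngp read 11.19 and 10.90 on Std 3. Mpo, Elane and Prtn3 of the same list read 4.99, 4.21 and 4.83 there, and Prtn3 read 4.83 on CDAA 1 as well. These genes too were at their highest Std value on Std 3. With Std 3, whose signal sets the spread of the Std group, none of these 10 markers passed in limma (0 at an unadjusted p under 0.05). Without Std 3, 6 of the 10 rose with CDAA (7.06% of all genes rose in that fit). Among them were S100a8 and S100a9, the subunits of calprotectin, while Ly6g, Mpo, Elane and Prtn3 did not pass. Ly6g was at 2.69 to 3.63 with CDAA, 8.51 on Std 3 and 2.56 to 2.86 on the other Std arrays. S100a8 was at 7.67 to 8.96 with CDAA, 11.65 on Std 3 and 5.39 to 6.04 on the other Std arrays. The mitotic mean was 5.53 on Std 3, 4.76 to 5.09 on the other Std arrays and 5.26 to 5.72 with CDAA. Markers of recruited, lipid-laden macrophages rose in 10 of 11 cases, with list means of 7.99 to 9.29 in CDAA and 5.23 to 6.09 in Std. All 7 bile duct markers rose (7.07 to 7.86 against 4.34 to 5.46), as did 6 of 11 stellate cell and fibroblast markers (6.60 to 8.07 against 5.88 to 6.34). Of LSEC markers, 9 of 10 fell, with means of 10.39 to 11.37 against 11.80 to 11.93, and 9 of 12 pan-endothelial markers fell (9.88 to 10.96 against 11.19 to 11.35). CDAA 4 had the lowest mitotic mean of its diet. It also had the lowest means of the macrophage, bile duct and stellate cell lists and the highest mean of both endothelial lists. CDAA 5 had the highest mitotic mean (5.72), but not the highest macrophage (8.46), bile duct (7.46) or stellate cell mean (7.44) of its diet. Of B and plasma cell markers 3 of 7 rose (5.70 to 6.57 against 4.73 to 5.42), and of T and NK cell markers none of 9 passed in limma (4.64 to 5.11 against 4.21 to 5.55; 0 at an unadjusted p under 0.05). Of Kupffer cell markers 5 of 11 fell and none rose (8.10 to 9.05 against 8.60 to 9.67). Hepatocyte markers moved both ways, 3 up and 2 down of 9 (6.78 to 7.82 against 6.69 to 7.28), and of 4 erythroid markers, 3 of them below the olfactory level, none passed (0 at an unadjusted p under 0.05; 3.02 to 3.23 against 2.75 to 3.51). The part of these cells in the proliferation signal was not tested. In a fit that adjusted for each array's pan-endothelial mean, itself moving with the diet, Cdk6 alone of the 55 members passed (1.20, limma adjusted p = 0.0197; 0.753% of all genes rose). No mitotic gene passed there, with Mki67 at 0.28.

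**Figure D3:**
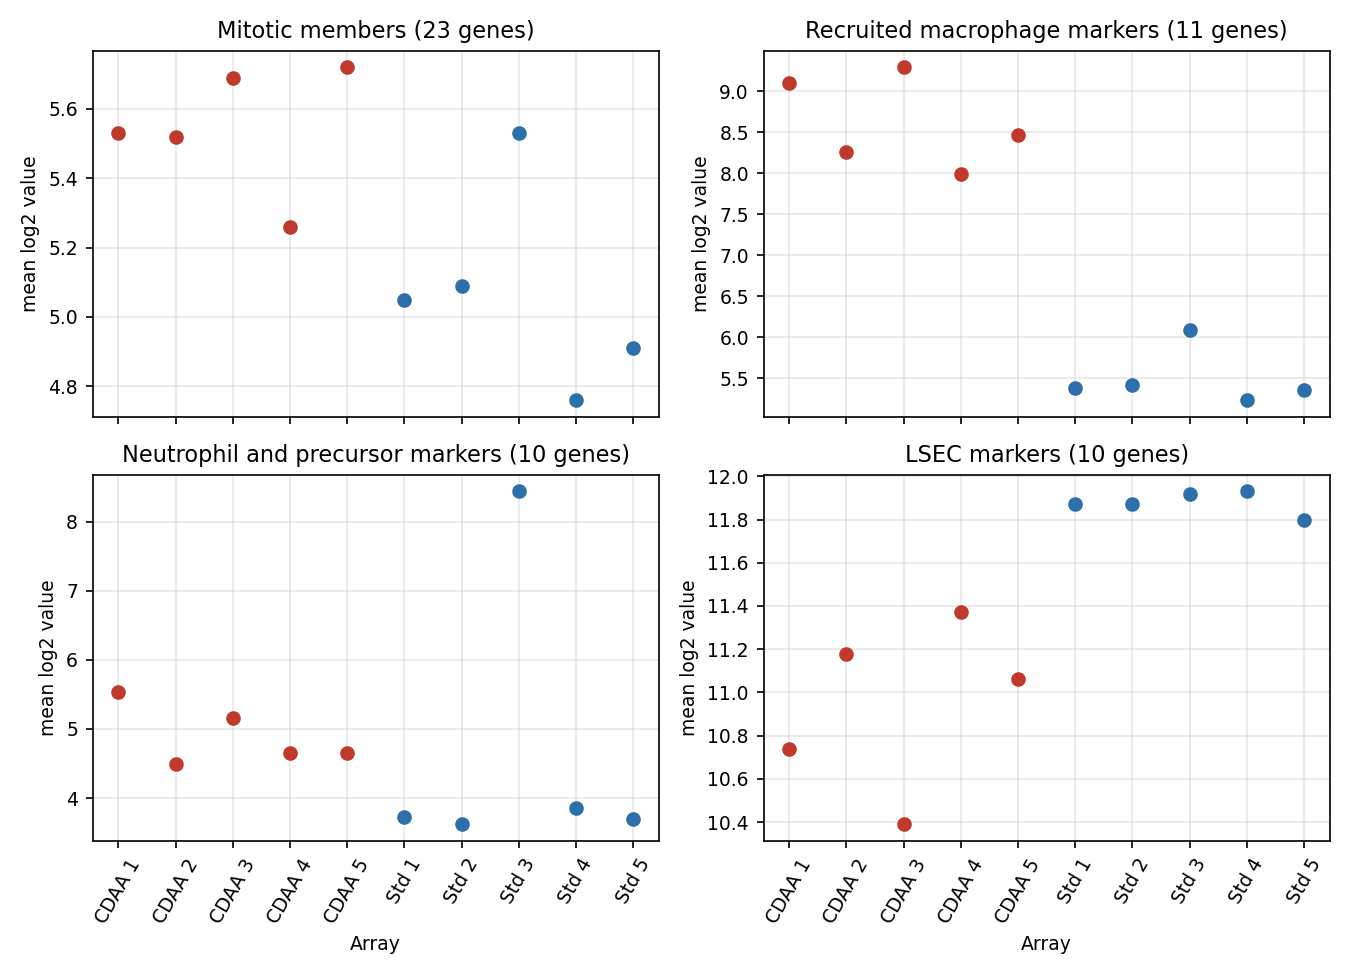
Mean log2 value (y axis) of 4 gene lists on each array (x axis, CDAA in red, Std in blue), each panel on its own scale. Std 3 stands out in the neutrophil panel at 8.44 and is the highest Std array in the mitotic panel at 5.53; all CDAA arrays lie above all Std arrays in the macrophage panel and below them in the LSEC panel.

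The promoters of the mitotic and the replication members differed in the short letter patterns they held. In quiescent cells the MuvB complex binds the CHR element (searched here as TTTGAA or TTCGAA), often next to CCAAT boxes (CCAAT) bound by NF-Y, and E2F factors bind sites searched here as TTCCCGC and its variants TTCGCGC and also TTGCCGC and lastly TTGGCGC. Both strands were searched from 250 bases before to 50 after each start in RefSeq promoters of GRCm38.p6, which held 45 of the 56 members. A gene with several starts counted when any of its windows held the letters. CHR letters were in 16 of 20 mitotic promoters (80.0%), in 2 of 11 replication promoters (18.2%) and in 21.7% of all 27025 genes. E2F letters were in 3 of 20 mitotic (15.0%), 8 of 11 replication (72.7%) and 10.9% of all genes with a promoter window. CCAAT was in 18 of 20, 8 of 11 and 41.1%. CHR letters were in 6 of 7 mitotic genes that rose and in 10 of 12 measured that did not pass. Matches can overlap: TTCGAA reads the same on both strands, E2F matches on opposite strands can share bases, and TTGGCGC can share bases with a reversed CCAAT. A match is a description of letters, not of binding.

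The 200 bases before the start are shown for both proliferation markers, for 2 further mitotic genes that rose (Cdk1 and Cdc20), for the replication gene Mcm6 and for Cdk6, the sharpest rise. Each is written 5′ to 3′ on the strand of the gene, with CHR, CCAAT and E2F letters in capitals, in the order chr7:135716380-135716579 (minus strand), chr11:99024190-99024389 (minus), chr10:69352913-69353112 (minus), chr4:118437344-118437543 (minus), chr1:128359706-128359905 (minus) and chr5:3343693-3343892 (plus).
Mki67: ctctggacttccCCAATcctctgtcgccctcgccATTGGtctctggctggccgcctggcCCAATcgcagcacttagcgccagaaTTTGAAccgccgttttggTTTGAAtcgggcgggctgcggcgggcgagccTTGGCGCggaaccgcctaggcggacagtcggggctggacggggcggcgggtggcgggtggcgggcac
Top2a: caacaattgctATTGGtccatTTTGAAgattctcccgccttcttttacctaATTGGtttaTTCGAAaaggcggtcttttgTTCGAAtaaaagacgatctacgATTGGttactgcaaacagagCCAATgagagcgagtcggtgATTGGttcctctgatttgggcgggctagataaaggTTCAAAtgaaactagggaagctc
Cdk1: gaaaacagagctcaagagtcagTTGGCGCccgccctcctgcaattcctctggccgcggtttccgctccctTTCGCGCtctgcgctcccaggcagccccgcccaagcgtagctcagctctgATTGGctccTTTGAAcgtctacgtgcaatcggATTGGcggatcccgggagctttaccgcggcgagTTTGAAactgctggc
Cdc20: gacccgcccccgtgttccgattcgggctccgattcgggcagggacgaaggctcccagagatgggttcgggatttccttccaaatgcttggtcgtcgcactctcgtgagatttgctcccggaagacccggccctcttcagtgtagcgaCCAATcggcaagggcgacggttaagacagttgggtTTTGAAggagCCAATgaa
Mcm6: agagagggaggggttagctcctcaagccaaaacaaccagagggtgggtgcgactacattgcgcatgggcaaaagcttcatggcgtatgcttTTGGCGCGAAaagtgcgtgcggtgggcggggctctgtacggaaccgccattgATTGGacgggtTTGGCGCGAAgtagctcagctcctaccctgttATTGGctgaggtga
Cdk6: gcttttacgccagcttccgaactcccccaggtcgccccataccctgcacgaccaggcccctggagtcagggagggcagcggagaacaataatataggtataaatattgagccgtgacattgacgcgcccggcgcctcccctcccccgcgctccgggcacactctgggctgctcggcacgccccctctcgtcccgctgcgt
Counting the base before the start as -1, Cdc20 held CCAAT at -53 and -8 and the CHR letters TTTGAA at -18. Mki67 held TTTGAA at -116 and -98 and 1 E2F match at -67. Mcm6 held TTGGCGC at -109 and -46, each overlapped by a match on the other strand, and 2 reversed CCAAT boxes, and the Cdk6 window held none of these letters.

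Replication genes rose in part, and the MCM helicase, a ring of 6 subunits that unwinds DNA at the fork, did not change as a unit. Of 13 replication genes, 5 rose (38.5%, against 7.49% of all genes) and 1, Mcm3, fell (7.69%, against 9.13%). A positive difference was seen in 12, and the median was 0.38. Mcm7 (17220_at) read 6.53, 6.52, 6.62, 6.18 and 6.84 with CDAA and 5.87, 5.84, 5.92, 5.78 and 5.72 with Std. Every CDAA array lay above every Std array, and the Std arrays were close to each other. Mcm7 rose by 0.71 ± 0.12 (SE, limma adjusted p = 0.00167), 1.64-fold. Mcm6 rose by 0.38 ± 0.10, from 7.10 to 7.40 in Std to 7.53 to 7.81 in CDAA, but did not pass without Std 4 (0.34). Mcm3 went the other way, from 7.63 to 7.75 in Std to 6.98 to 7.33 in CDAA, with no overlap. Mcm3 fell by 0.48 (log2, with an SE of 0.09 and a limma adjusted p of 0.00420), and this held with any array left out (-0.51 to -0.42). Mcm2, Mcm4 and Mcm5 differed by 0.18, 0.03 and 0.25, with 95% intervals of -0.06 to 0.43, -0.20 to 0.26 and -0.13 to 0.63.

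Within each array, Mcm7 minus Mcm3 was -1.15 to -0.45 in CDAA and -1.96 to -1.78 in Std, a difference of 1.19 between the diet means. This was 1 of 3 pairs of genes set side by side after their values were seen, so it is a description, and no test of it is reported. Since Mcm7 was higher and Mcm3 lower on every CDAA array, the pair had to separate the diets.

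**Figure D4:**
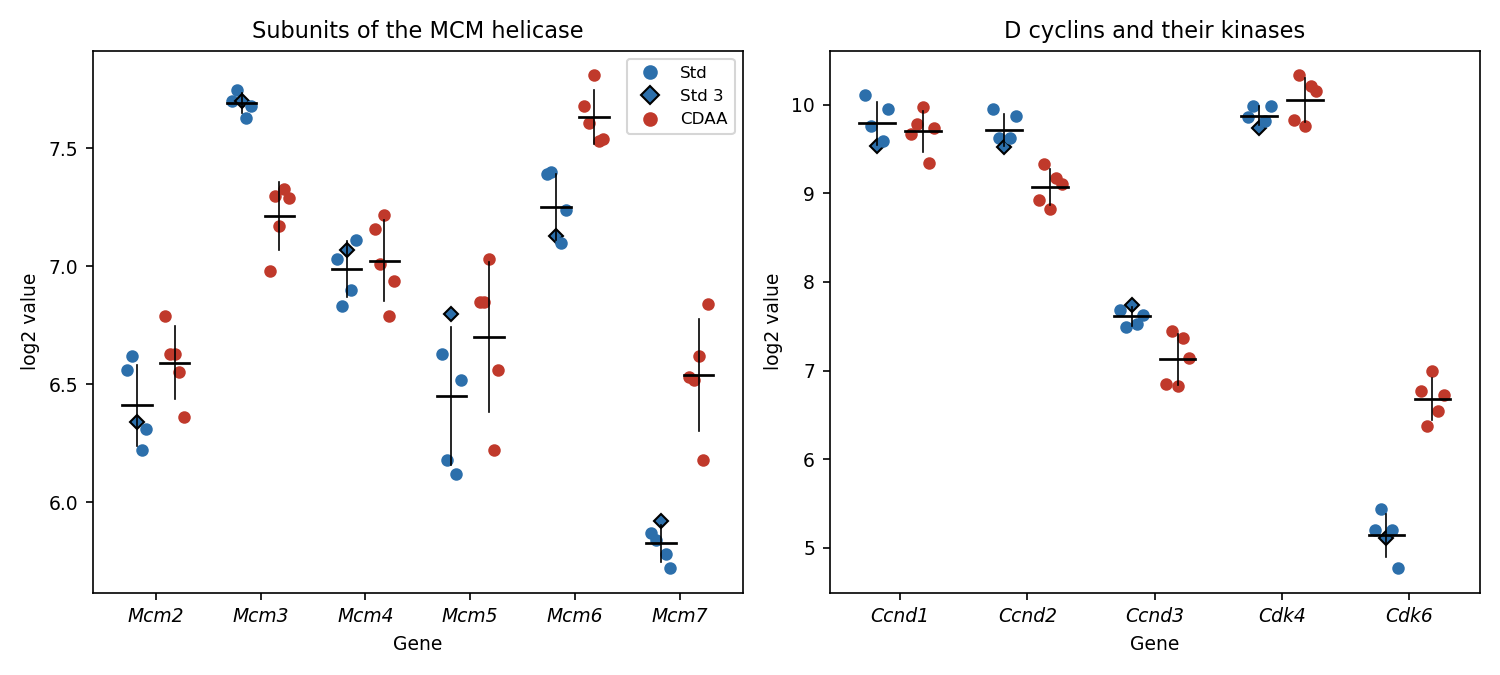
log2 values (y axis) on each of 5 Std (blue, Std 3 as a diamond) and 5 CDAA (red) arrays for the 6 MCM subunits (left) and for the D cyclins with Cdk4 and Cdk6 (right), with bars at the mean and of 1 SD. Mcm6, Mcm7 and Cdk6 are higher without overlap in CDAA, and Mcm3, Ccnd2 and Ccnd3 lower without overlap; levels of different genes are not comparable.

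Gins2 (272551_at), a subunit of the GINS complex that joins the helicase, read 4.76, 4.58, 5.45, 4.73 and 4.42 with CDAA and 4.15, 3.93, 4.32, 3.91 and 3.67 with Std. All CDAA arrays were above all Std arrays, with CDAA 3 the highest. Gins2 rose by 0.79 ± 0.18 (limma adjusted p = 0.0115), and still by 0.58 without CDAA 1 and CDAA 3. Pcna, the sliding clamp of the polymerases, was at 10.82 to 11.14 with CDAA and 10.15 to 10.79 with Std, without overlap, and rose by 0.51 ± 0.12 (limma adjusted p = 0.0142). Tyms, thymidylate synthase, rose by 0.49 but passed in only 3 of the 10 fits with an array left out (0.41 to 0.58). The subunits of ribonucleotide reductase differed by 0.51 (Rrm2, the regulated subunit, limma adjusted p = 0.0607) and 0.09 (Rrm1). Rrm2 passed without Std 3, at 0.64. The helicase loaders Cdc6 and Cdt1 differed by 0.27 and 0.47 and did not pass. Without CDAA 1 and CDAA 3, Mcm7 (0.69) and Gins2 rose and Mcm3 fell (-0.38), while Mcm6, Pcna and Tyms did not pass (0.31, 0.45 and 0.50). In the fit without Std 4, 3 replication genes rose (5.68% of all genes rose there).

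Among the 8 G1/S genes, Cdk6 rose (12.5%, against 7.49% of all genes) and Ccnd2 and Ccnd3 fell (25.0%, against 9.13%). The other 5 did not pass. Cdk6 (12571_at), a kinase partner of the D cyclins, read 6.77, 6.37, 7.0, 6.54 and 6.72 with CDAA and 5.20, 5.44, 5.11, 5.20 and 4.77 with Std. The lowest CDAA array lay well above the highest Std array. The means were 6.68 ± 0.24 and 5.14 ± 0.24 (SD, n = 5), a rise of 1.54 ± 0.14 (SE, limma adjusted p = 5.85e-05), 2.90-fold. Cdk6 passed in all 22 other fits run, at 1.40 without CDAA 1 and CDAA 3, and it alone of the members passed a test against a difference of 0.5 (1.45% of all genes rose there). Cdk4, the other partner of the D cyclins, differed by 0.18 (95% interval -0.09 to 0.45), but passed without CDAA 1 and CDAA 3 (limma adjusted p = 0.0489). Cdk6 minus Cdk4 was -3.97 to -2.75 in CDAA and -5.21 to -4.54 in Std, a difference of 1.36 between the diet means. This pair too was chosen after its values were seen, and its separation restates that of Cdk6.

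Ccnd2, cyclin D2, was at 8.82 to 9.33 with CDAA and 9.52 to 9.95 with Std, without overlap. Ccnd2 fell by 0.65 (log2, with an SE of 0.12 and a limma adjusted p of 0.00405), which held with any array left out (-0.71 to -0.58) and without CDAA 1 and CDAA 3 (-0.51). Ccnd3, cyclin D3, was also lower on every CDAA array, at 6.83 to 7.45 against 7.49 to 7.74, and fell by 0.48 (limma adjusted p = 0.0272). Its call was lost without CDAA 1 (-0.41), CDAA 3 (-0.40), Std 1 (-0.46), Std 3 (-0.45) or Std 5 (-0.48). Unlike Ccnd2, Ccnd3 did not pass without both CDAA 1 and CDAA 3 (-0.29, limma adjusted p = 0.131). Ccnd1, cyclin D1, did not follow: its values overlapped, at 9.34 to 9.97 against 9.53 to 10.11, and differed by -0.08 (95% interval -0.39 to 0.22). Ccnd2 minus Ccnd1 was -1.15 to -0.17 in CDAA and -0.16 to 0.03 in Std, a difference of -0.56 between the diet means, with CDAA 4 next to the Std range. This pair was likewise chosen after its values were seen, and no test of it is reported. The E cyclins Ccne1 and Ccne2, which fire replication, differed by -0.02 and 0.23, and their kinase Cdk2 by -0.09. The interval for Ccne2 was wide, -0.34 to 0.79, and its difference was 0.03 without Std 4 and 0.42 without Std 3.

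None of the 5 transcription factors passed in limma, against 16.6% of all genes. By unadjusted p under 0.05 in limma, 1 was lower, E2f1, against 16.2% of all genes. E2f1, an activator of replication genes, was at 4.72 to 4.92 with CDAA and 4.91 to 5.12 with Std, a difference of -0.23 (limma adjusted p = 0.103). Foxm1 and Mybl2, which drive the mitotic genes, differed by 0.26 (95% interval -0.16 to 0.69) and -0.01 (-0.28 to 0.25), and E2f8, a repressor, by 0.08. E2f2 was at 5.22 on Std 3 and at 3.38 to 3.57 on the other Std arrays, against 3.40 to 4.08 with CDAA, a difference of -0.17 with Std 3 and 0.17 without it.

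None of the 6 CDK inhibitors passed either, against 16.6% of all genes. By unadjusted p under 0.05 in limma, 1 was higher, Cdkn2c, against 12.2% of all genes. Cdkn1a, the p53-induced inhibitor p21, read 8.51, 8.13, 8.29, 8.04 and 7.62 with CDAA and 8.57, 8.62, 8.45, 8.17 and 8.43 with Std. The diets overlapped, and it differed by -0.33 ± 0.15 (limma adjusted p = 0.182). The difference was -0.21 without CDAA 5, and -0.52 without CDAA 1 and CDAA 3, where alone it passed as a fall (limma adjusted p = 0.0477). Cdkn1b, p27, which keeps resting cells out of the cycle, read 8.27, 8.32, 7.86, 8.23 and 8.08 with CDAA and 8.15, 8.07, 8.26, 8.24 and 7.94 with Std, with full overlap and a difference of 0.02 (95% interval -0.22 to 0.26). Cdkn1c, p57, read 4.57, 5.92, 4.69, 6.13 and 5.22 with CDAA and 5.79, 5.76, 5.53, 6.18 and 5.99 with Std. It was low on CDAA 1, CDAA 3 and CDAA 5 and within the Std range on CDAA 2 and CDAA 4, and differed by -0.54 ± 0.28 (limma adjusted p = 0.235).

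The INK4 inhibitors bind CDK4 and CDK6. Cdkn2a, whose locus encodes p16 and ARF, read 5.29, 5.06, 4.77, 5.19 and 5.50 with CDAA and 5.05, 5.06, 5.37, 5.11 and 5.51 with Std, a difference of -0.06 (95% interval -0.37 to 0.26). Cdkn2b, p15, read 5.16, 5.24, 4.99, 5.06 and 5.76 with CDAA and 5.28, 5.27, 4.73, 5.27 and 5.37 with Std, a difference of 0.06 (-0.29 to 0.42). Neither separated the diets. Cdkn2c, p18, read 6.08, 6.31, 5.52, 6.27 and 6.59 with CDAA and 5.58, 5.83, 6.02, 5.53 and 5.75 with Std. CDAA 3 was low and its other 4 CDAA arrays lay above every Std array. Cdkn2c differed by 0.41 ± 0.18 (limma adjusted p = 0.150) and passed without CDAA 3 (0.57, limma adjusted p = 0.0154).

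Further genes of the same processes were counted from lists outside the members. Of 49 other mitotic genes, 7 rose (14.3%, against 7.49% of all genes) and Kif4 fell (2.04%, against 9.13%). A positive difference was seen in 42, and the median was 0.28. The checkpoint gene Mad2l1 rose by 0.84 ± 0.23 (limma adjusted p = 0.0251), and the kinetochore genes Spc24 and Knl1 by 0.55 each. Of 40 other replication genes, 1 rose (2.50%, against 7.49% of all genes) and 1 fell (2.50%, against 9.13%), with a median of 0.06. Tk1, thymidine kinase, rose by 0.48. Pola2, a subunit of the primase-bound polymerase, fell by 0.71 (SE 0.12, limma adjusted p = 0.00207). Of 22 other G1/S genes, 1 rose (4.55%, against 7.49% of all genes) and 2 fell (9.09%, against 9.13%). The repressor-type factor E2f4 fell by 0.84 (SE 0.12, limma adjusted p = 0.000807) and E2f3 by 0.53, while the E2F partner Tfdp1 rose by 0.50. The median there was -0.15. Pola2 and E2f4 passed with any array left out (-0.76 to -0.64 and -0.89 to -0.74) and without CDAA 1 and CDAA 3 (-0.53 and -0.73). The others named here lost their call with at least 1 array left out. Mad2l1 lost it without CDAA 1, CDAA 3, CDAA 5, Std 1 or Std 4 (0.69 to 0.80), Spc24 without Std 1 or Std 4 (0.50 and 0.53) and Tfdp1 without Std 4 (0.43). Knl1 passed in 3 of the 10 fits (0.45 to 0.65), Tk1 in 2 (0.37 to 0.57), E2f3 in 4 (-0.66 to -0.46) and Kif4 in 2 (-0.46 to -0.30). Over these lists and the p53 targets, 11 of 130 genes rose, 19 without Std 3 and 3 without Std 4, against 7.49%, 7.06% and 5.68% of all genes.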

How the data were processed

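RMA was named in the submitters' processing notes, and the log2 values deposited by the authors were used as given. Its version, the genome build and any batch are not given in the sources used here. As a method, RMA subtracts background, equalises array distributions and summarises probes, so a shift common to all genes cannot be seen. Of 25428 probe sets, 24705 had 1 gene symbol in the platform annotation, 0 several and 723 none. The brightest probe set of a gene was used, which left 24704 genes. The diets were compared with limma 3.58.1 under R 4.3.3 (lmFit, eBayes, two-sided, Benjamini-Hochberg over all genes, threshold 0.05). The arrays are separate pools of mice, and p-values reflect only the spread between them. On simulated data with 200 of 24704 genes changed, limma recovered 13.5% of changes of 0.5, 80.5% of 1 and 99% of 2 on the log2 scale (0, 4 and 12 false calls). In the real data 16.6% of all genes passed, a larger share than was changed there, so these recoveries do not carry over to the real comparison. The number of arrays limits the precision.

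The members, lists, motifs and tests were chosen with earlier results of these data known. All members are accounted for. Values of every array are given for Mki67, Top2a, members past the threshold with a difference of at least 0.7 and the CDK inhibitors. From each further list up to 3 genes with the largest difference past the threshold are named. Kif4, Trp53inp1, Sesn2, Eda2r, Ltf, Ngp, S100a8, S100a9, Ly6g, Mpo, Elane and Prtn3 were named after their values were seen. Alternatives were a replicate block, quantile normalization, median centring, filters on dim genes, a variance trend and array weights. Further ones were mean probe sets, the pan-endothelial mean as a covariate, treat and fewer arrays. Added after seeing the data were the fit without CDAA 1, CDAA 3 and Std 3, and the marker counts without Std 3. The 3 gene pairs were added then too, and no test of them is reported. Promoters came from RefSeq tables. Protein sequences are not used here.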

Additional observations from a re-analysis of the deposited data

Results flagged for a closer look

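An array lay far from the others of its diet for 3 of 110 checks (55 members, 2 diets), with a gap to the nearest array above 0.71 of the range. Chance alone gives about 5% of groups. E2f2 was 5.22 on Std 3, the nearest Std array being at 3.57. Cdkn2b was 4.73 on Std 3, where the nearest was 5.27. Cdc20 was 5.78 on Std 1, where the nearest was 5.48. Std 3 also had the high neutrophil marker mean of 8.44, whose part in these values was not tested.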

How the results depend on the processing

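No call or direction of the 55 members changed with quantile normalization, median centring or the mean of probe sets. These could change little, as RMA equalises array distributions and 24705 probe sets named 24704 genes. The filter on the dimmest 25% and the intensity trend changed none either. The filter at the median left 53 members, among which Rrm2 also passed. A test against a difference of 0.5 called 452 genes in all (1.45% of all genes risen, 0.385% fallen). Of the members 1 rose and 0 fell, with 0 in the mitotic, replication and further pathway counts and 0 G1/S genes fallen. The pan-endothelial covariate gave 271 genes (0.753% of all genes risen, 0.344% fallen). It gave 1 member risen, 0 fallen, no mitotic, replication or fallen G1/S gene, and 1 further pathway gene risen and 0 fallen. Differences that changed sign there were those of Aurka (-0.04), Cdca8 (-0.04), Cenpa (0.16), Kif23 (-0.08), Rrm1 (-0.03), Mcm4 (-0.24), Mcm5 (-0.19), Cdc6 (-0.02), Cdt1 (-0.05), Cdkn1c (0.54) and Cdkn2a (0.14). Without CDAA 1 and CDAA 3 (fewer samples), 2612 genes passed (5.28% of all genes rose and 5.29% fell). Of the members 6 rose: 1 mitotic, 2 replication, 2 G1/S and 1 inhibitor. Among G1/S genes 1 fell, among inhibitors 1 fell, and of further pathway genes 6 rose and 4 fell. Cenpa (0.03), Mcm4 (-0.08) and Cdkn2a (0.03) changed sign. Without CDAA 1, CDAA 3 and Std 3, 2689 genes passed (5.67% of all genes rose and 5.21% fell). There 3 replication genes rose, 1 G1/S gene fell, 1 inhibitor rose and 4 further pathway genes fell. Cenpa (0.01), Mcm4 (-0.06), E2f2 (0.02), Mybl2 (0.02) and Cdkn2a (0.07) changed sign.

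With array weights (7.76% of all genes risen), 18 members rose: Aurkb, Cenpe, Kif11, Rrm2 and Cdkn2c passed as well, and Tyms and Ccnd3 did not. With these weights 1 G1/S gene fell (9.50% of all genes fell), 1 inhibitor rose, 18 of 130 further pathway genes rose and Ccne1 changed sign (0.07). With the replicate number as a block, 7.66% of all genes rose and 9.25% fell. There 1 G1/S gene fell, Kif11 and Nusap1 passed, and Tyms and Ccnd3 did not. Deviations of same-numbered arrays correlated at 0.016, 0.138, 0.231, 0.249 and 0.095. As these were not all above 0.1, the numbers were not taken as pairs, although 3 of 5 CDAA arrays correlated best with their own number. With 1 array left out, members risen ranged from 7 to 20, mitotic from 3 to 14 and replication from 3 to 5. G1/S genes fallen ranged from 1 to 2 and inhibitors risen from 0 to 1. Further pathway genes ranged from 3 to 19 risen and from 4 to 9 fallen. Of all genes, 5.68% to 8.05% rose and 6.29% to 10.5% fell in these fits. Signs changed for Cenpa (-0.12 to 0.01), Mcm4 (-0.02 to 0.09), Ccnd1 (-0.15 to 0.01), Ccne1 (-0.13 to 0.10), E2f2 (-0.29 to 0.17), Mybl2 (-0.07 to 0.04), Cdkn1b (-0.03 to 0.09), Cdkn2a (-0.14 to 0.04) and Cdkn2b (-0.07 to 0.12). Apart from the named constructions, the cause was not tested. Genes near the olfactory level, such as Birc5, can understate a change.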

Other observations

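Targets of the tumour suppressor p53, the activator of Cdkn1a, moved both ways. Of 19 measured, 4 fell and 2 rose, against 9.13% and 7.49% of all genes, with a median difference of -0.19. The death receptor gene Fas was at 8.08 ± 0.45 with CDAA and 8.95 ± 0.13 with Std (SD, n = 5) and fell by 0.87 (log2, limma adjusted p = 0.00725). The RNA-binding factor Zmat3 fell by 0.67, the stress sensor Sesn2 by 0.65 and the receptor Eda2r by 0.54. The death receptor Tnfrsf10b went the other way and rose by 0.79 ± 0.19 (SE, limma adjusted p = 0.0152), and Trp53inp1 rose by 0.47. Fas, Zmat3 and Tnfrsf10b passed with any single array left out, and without CDAA 1 and CDAA 3 their differences were -0.55, -0.50 and 1.09. The others lost their call with some arrays left out: Sesn2 in 6 of the 10 fits (-0.79 to -0.55 over all of them), Eda2r in 8 (-0.63 to -0.38) and Trp53inp1 in 5 (0.40 to 0.55). Mdm2, the p53 feedback gene, differed by -0.41 (limma adjusted p = 0.0761).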
